A study of Mus musculus with 5 samples.

Results

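A group of 10 genes of glutathione metabolism and of the antioxidant response was followed in brown adipose tissue (BAT) of mice lacking activating transcription factor 4 (ATF4) in thermogenic adipocytes. They are Gclc, Gclm, Gss, Gsr, Chac1, Cth, Cbs, Nqo1, Hmox1 and Txnrd1, taken by name for their roles in glutathione synthesis and breakdown, in transsulfuration and as targets of NRF2. These are 10 of the 52022 genes with a match in the annotation, and all 10 were among the 16450 genes tested. ATF4 BKO mice carried floxed Atf4 alleles and the transgene Tg(Ucp1-cre)1Evdr, and their WT littermates carried the floxed alleles without Cre. All mice were described as males on a C57Bl/6J background, 10 to 12 weeks old, fed ad libitum, kept at 30 °C and then at 4 °C for 3 days. RNA-seq libraries of BAT from 3 ATF4 BKO mice and 2 WT mice were compared, 1 library per mouse. The Ucp1 promoter drives Cre in UCP1-expressing adipocytes and is not meant to target the other cell types of the tissue. Only the ATF4 BKO mice carried the transgene, so loss of Atf4 and carriage of the transgene cannot be told apart. No mice kept at 30 °C were sequenced here, so the values give the effect of genotype in the cold and not the effect of cold. Because whole tissue was sequenced, fewer cells of a type and less RNA per cell cannot be told apart.

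Glutathione is the main small thiol of the cell. Gclc and Gclm encode the catalytic and modifier subunits of glutamate-cysteine ligase, the enzyme of the rate-limiting step, and Gss encodes the synthetase that adds glycine. Cysteine for this step is imported, largely as cystine through the product of Slc7a11, or made from methionine by transsulfuration through cystathionine beta-synthase (Cbs) and cystathionine gamma-lyase (Cth). Chac1 encodes an enzyme that cleaves glutathione and is a known target of the ATF4 pathway in the integrated stress response. Gsr regenerates reduced glutathione, and Nqo1, Hmox1 and Txnrd1 are standard targets of NRF2, a factor that KEAP1 holds in check until oxidants or electrophiles release it. In BAT, oxidative metabolism and thermogenesis run alongside this thiol chemistry.

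Levels are given as CPM, which are gene counts scaled by library size and TMM factors to a common total and serve for comparing 1 gene between libraries. Fold changes are log2 differences of ATF4 BKO minus WT from edgeR's quasi-likelihood test, given with their standard errors (SE), and adjusted p-values are Benjamini-Hochberg values over all 16450 genes with a threshold of 0.05. A single gene in 3 against 2 libraries cannot go below p = 0.1 in an exact permutation test, one-sided or two-sided. The deleted gene was examined first. Atf4 was at 32.6, 52.6 and 23.5 CPM in ATF4 BKO replicates 1, 2 and 3 and at 286 and 226 CPM in WT replicates 1 and 2. Each ATF4 BKO library was therefore well below both WT libraries, with a mean at 14.2% of the WT mean and a log2 fold change of -2.82 (SE 0.34). Its adjusted p was 0.671 in edgeR and 9.717e-12 in DESeq2.

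Of the 5 libraries, 3 stood apart in some markers, both WT libraries among them. ATF4 BKO replicate 1 held 4598 counts of Xist, the RNA of the inactive X chromosome in females, against 0 to 7 counts in the other 4 libraries. Counts of the Y-linked genes Uty, Kdm5d, Ddx3y and Eif2s3y summed to 34 there, against 3284 to 4476 in the others, so this library went against its label of a male mouse, while its Atf4 level was that of the other ATF4 BKO libraries. WT replicate 1 had the lowest sum of macrophage markers, 211 CPM against 506 to 1395 CPM, led by Lyz2, and the lowest sums of endothelial and lymphocyte markers. It also had the highest sum of erythroid markers, 3312 CPM against 1346 to 2028 CPM, led by Hba-a1. WT replicate 2 held 2290 CPM of 13 skeletal muscle markers led by Myh4, WT replicate 1 held 99.7 CPM, and the ATF4 BKO libraries held 3.80 to 30.9 CPM. The brown adipocyte markers, led by Ucp1, were abundant in every library, at a sum of 19335 to 25743 CPM, as the tissue label says. The white adipocyte markers, led by Npr3, summed to 229, 431 and 354 CPM in ATF4 BKO and to 375 and 446 CPM in WT. By log2 fold change, 13 of 13 muscle and 7 of 7 erythroid markers were below 0, with medians of -6.44 and -0.66, and 11 of 12 macrophage, 7 of 7 endothelial and 7 of 8 lymphocyte markers were above 0, with medians of 0.38, 0.40 and 0.36. The lymphocyte markers were few, at a sum of 3.16 to 7.55 CPM. Over the ATF4 BKO mean, the median log2 ratio in WT replicates 1 and 2 was -1.36 and 0.24 for macrophage markers. It was -0.55 and -0.30 for endothelial, -1.16 and 0.034 for lymphocyte and 1.07 and 0.040 for erythroid markers. The part of these cell markers in the results that follow was not tested. Sample names carry a prefix of unstated meaning, which WT replicate 1 shares with ATF4 BKO replicates 1 and 2 (called here the first prefix), and WT replicate 2 with ATF4 BKO replicate 3 (the second).

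Chac1 showed the largest edgeR fold change of the 10 genes. It was at 0.972, 1.17 and 0.572 CPM in ATF4 BKO replicates 1, 2 and 3 and at 5.35 and 4.48 CPM in the WT replicates. Both WT libraries lay close together and all 3 ATF4 BKO libraries lay below them, the groups having means of 0.906 ± 0.306 (SD, n = 3) and 4.92 ± 0.611 CPM (SD, n = 2). The counts behind these levels were low, 22, 33 and 17 in ATF4 BKO and 169 and 152 in WT. The log2 fold change was -2.44 (SE 0.36), lower in 3 of 3 ATF4 BKO libraries, with an adjusted p of 0.671 in edgeR and 2.263e-05 in DESeq2. It was -2.32 among the libraries of the first prefix and -2.97 among those of the second. Leaving out any 1 library gave -2.66 to -2.19, and without ATF4 BKO replicate 1 it was -2.49, with a DESeq2 adjusted p of 0.00247. Without WT replicate 1 the log2 fold change was -2.30. That fit keeps 1 WT library, so no call is given for it. No 31-base word of the Chac1 transcript was found in another gene.

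Chac1 lies on chromosome 2 at 119351229 to 119354381 (plus strand) in the GENCODE M21 annotation of GRCm38. The windows of RefSeq promoters on GRCm38.p6, 250 bases before to 50 bases after each gene start, were searched on both strands for TGATGNAA, an element bound by C/EBP-ATF pairs, and for TGACNNNGC, the core of the antioxidant response element bound by NRF2. The first is present in 3.97% and the second in 12.4% of all 32851 promoter windows. A window was found for Chac1, Gss, Gclm, Nqo1, Txnrd1 and Cbs and not for Gclc, Gsr, Cth and Hmox1. Of the 6, Chac1 alone held TGATGNAA, once, on the opposite strand 193 to 186 bases before the start. TGACGCAA, a related sequence that was looked for only after the Chac1 promoter had been read, stands at the far end of its window and in 0.490% of all windows. The first of the lines below gives chr2:119350992-119351071 (plus strand), which holds both, in capitals. The second gives the stretch of the Slc7a11 promoter, chr3:50443638-50443694 (minus strand), with 2 matches of TGATGNAA in opposite directions. The third gives the match in Got1, chr19:43524685-43524722 (minus strand), the gene of cytosolic aspartate aminotransferase. The last line gives the match in Sqor, chr2:122771555-122771592 (plus strand), the gene of a sulfide oxidizing enzyme. These are the members and sulfur amino acid genes whose matches lie wholly before the start, and Slc1a4, whose match spans the start, is not printed. Sqor was at 45.4, 39.3 and 49.1 CPM in ATF4 BKO and 36.6 and 39.3 CPM in WT, with overlapping groups and a log2 fold change of 0.23 (SE 0.14). Chac1, Slc7a11, Slc1a4 and Got1 had log2 fold changes below 0. The part of the motif in any of these values was not tested.
Chac1: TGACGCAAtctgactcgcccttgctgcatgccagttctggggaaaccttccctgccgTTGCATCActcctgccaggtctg
Slc7a11: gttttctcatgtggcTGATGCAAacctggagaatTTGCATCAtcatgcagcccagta
Got1: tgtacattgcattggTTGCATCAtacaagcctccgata
Sqor: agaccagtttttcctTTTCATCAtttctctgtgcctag

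Cth, the second enzyme of transsulfuration, was at 3.67, 5.34 and 7.07 CPM in ATF4 BKO and at 21.9 and 12.9 CPM in WT. All ATF4 BKO libraries were below both WT libraries, with means of 5.36 ± 1.70 (SD, n = 3) and 17.4 ± 6.37 CPM (SD, n = 2), although the WT values themselves differed 1.70-fold. The log2 fold change was -1.69 (SE 0.35), with an adjusted p of 0.704 in edgeR and 0.006436 in DESeq2. It was -2.28 among the libraries of the first prefix and -0.86 among those of the second. Without ATF4 BKO replicate 1 it was -1.48 (DESeq2 adjusted p = 0.0348). Without WT replicate 1 it was -1.25, in a fit that keeps 1 WT library, so no call is given for it. Cth lies on chromosome 3 at 157894248 to 157925077 (minus strand).

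Cbs, the first enzyme of transsulfuration, had a different pattern. It was at 1.77, 4.09 and 11.8 CPM in ATF4 BKO and at 2.31 and 2.83 CPM in WT. The ATF4 BKO libraries spanned 6.65-fold, with replicate 1 below and replicates 2 and 3 above both WT libraries. The log2 fold change of 1.19 (SE 0.76, edgeR adjusted p = 0.920) was smaller than that spread and was 0.20 without ATF4 BKO replicate 3. It was 0.092 with the replicate number as a block.

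The glutathione synthesis genes shared a pattern between the libraries. Gclc was at 17.4, 23.8 and 18.2 CPM in ATF4 BKO and at 35 and 18.8 CPM in WT. Gclm was at 39.7, 43.7 and 34.7 CPM in ATF4 BKO and at 59.4 and 34.7 CPM in WT. Gss was at 35.9, 48.1 and 49.9 CPM in ATF4 BKO and at 80.2 and 46.0 CPM in WT. For each of the 3 genes WT replicate 1 was the highest library, whereas WT replicate 2 lay within the range of the ATF4 BKO libraries for Gclc and Gss and level with the lowest of them for Gclm, so the groups overlapped. The log2 fold changes were -0.44 (SE 0.29) for Gclc, -0.26 (SE 0.25) for Gclm and -0.50 (SE 0.27) for Gss, with edgeR adjusted p-values of 0.920, 0.942 and 0.912. Without WT replicate 1 they were 0.083, 0.195 and -0.031, and without WT replicate 2 they were -0.84, -0.61 and -0.86. Of the 31-base words of the Gss transcripts, 12.7% also occur in other genes, which makes its counts less certain than those of Gclc, with none.

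Glutathione reductase, Gsr, varied least within the synthesis and recycling genes, at 21.1, 23.6 and 20.1 CPM in ATF4 BKO and 27.6 and 21.4 CPM in WT. WT replicate 1 was again the highest and WT replicate 2 again fell among the ATF4 BKO libraries. Its log2 fold change of -0.18 (SE 0.17, edgeR adjusted p = 0.938) became 0.028 without WT replicate 1.

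**Figure D1:**
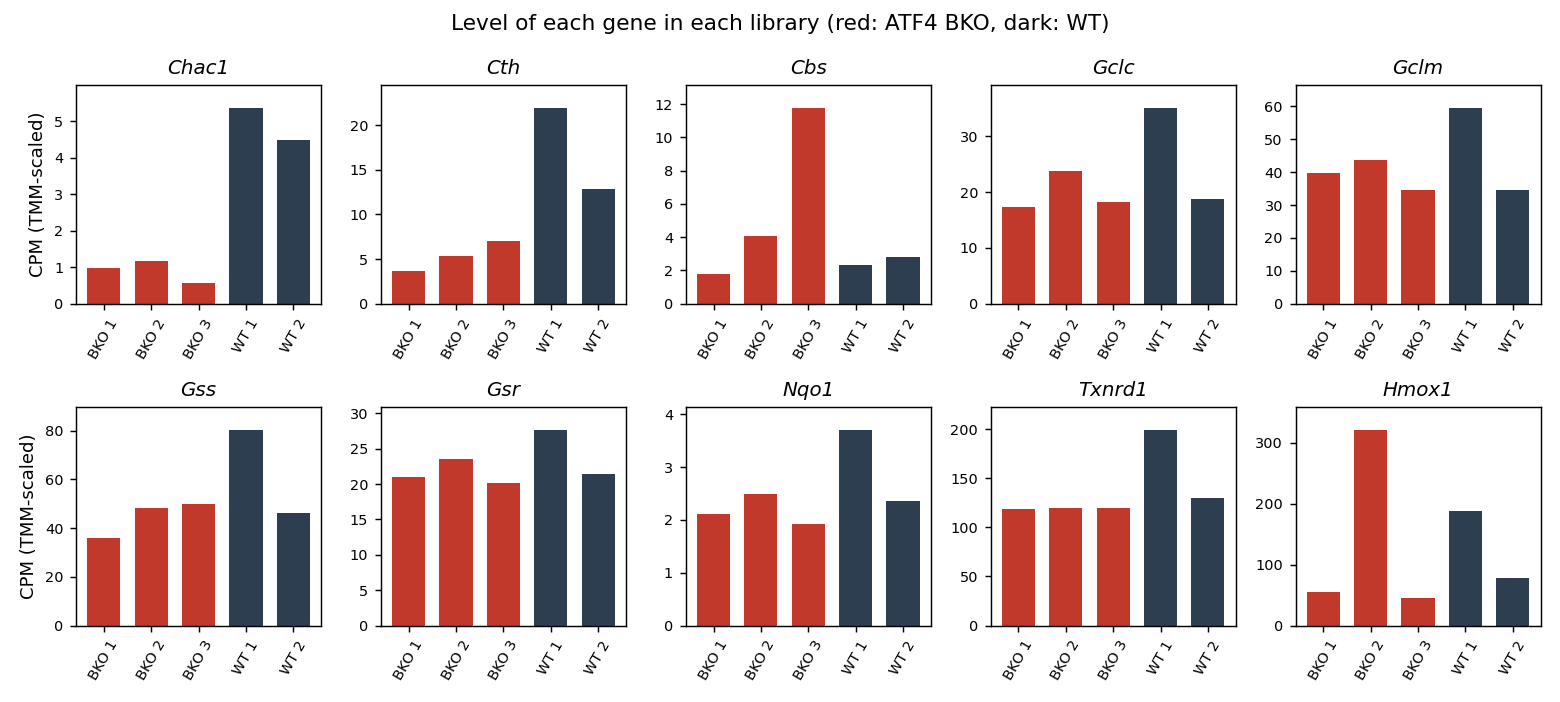
CPM of each of the 10 genes (vertical axes, each from 0 and on its own scale) in the 3 ATF4 BKO libraries (red) and the 2 WT libraries (dark). Chac1 and Cth are low in every ATF4 BKO library, while Gclc, Gclm, Gss and Gsr are high in WT replicate 1 alone, and Hmox1 is highest in ATF4 BKO replicate 2.

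Of the NRF2 targets, Txnrd1, cytosolic thioredoxin reductase, was at 119, 120 and 119 CPM in ATF4 BKO and at 199 and 130 CPM in WT. The ATF4 BKO libraries spanned 1.01-fold and all lay below both WT libraries, WT replicate 2 by a small margin. The log2 fold change was -0.46 (SE 0.19), with an adjusted p of 0.911 in edgeR and 0.857 in DESeq2. Among the libraries of the first prefix it was -0.74, and among those of the second it was -0.13. Without ATF4 BKO replicate 1 it stayed at -0.46, without WT replicate 1 it was -0.11, and without WT replicate 2 it was -0.75.

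Nqo1, a quinone reductase, was low in this tissue, at 2.12, 2.49 and 1.92 CPM in ATF4 BKO and 3.70 and 2.36 CPM in WT. WT replicate 2 lay between ATF4 BKO replicates 2 and 1. The log2 fold change was -0.48 (SE 0.31, edgeR adjusted p = 0.920) and -0.11 without WT replicate 1.

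Hmox1, the enzyme that opens the heme ring, varied widely between mice of the same genotype. It was at 55.7, 320 and 45.9 CPM in ATF4 BKO and at 188 and 77.4 CPM in WT. The ATF4 BKO libraries thus spanned 6.98-fold, with both WT libraries inside their range, and the log2 fold change was 0.084 (SE 0.91, edgeR adjusted p = 0.992). It was -1.38 without ATF4 BKO replicate 2 and 0.85 without WT replicate 1. Sqstm1, which encodes the autophagy receptor p62 that binds KEAP1, had the profile nearest to Hmox1 and was at 115, 311 and 133 CPM in ATF4 BKO and 552 and 194 CPM in WT. The macrophage marker sum, 846, 1395 and 506 CPM in ATF4 BKO and 211 and 1151 CPM in WT, was highest in the library with most Hmox1 but lowest in the library with the second most. The erythroid marker sum was highest in WT replicate 1 and next in ATF4 BKO replicate 2, the 2 libraries with most Hmox1, in the other order. The part of either cell type in the Hmox1 values was not tested.

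**Figure D2:**
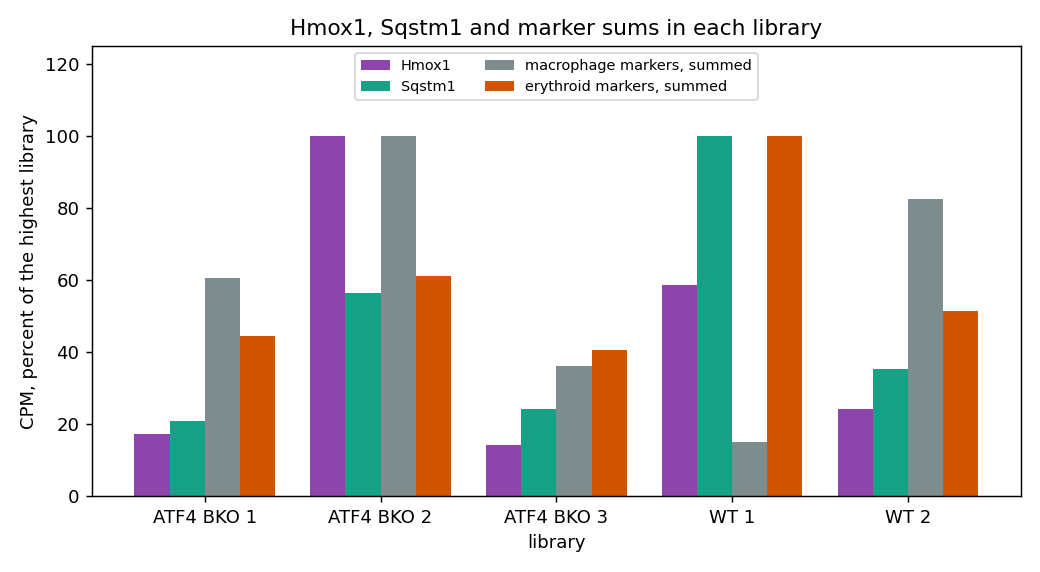
CPM of Hmox1, of Sqstm1 and of the summed macrophage and erythroid markers in each library, as a percent of the library where each is highest (vertical axis). Hmox1 and Sqstm1 are highest in ATF4 BKO replicate 2 and WT replicate 1, and the macrophage sum of WT replicate 1 is 15.2% of its highest value.

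Over the 10 genes, 8 had a log2 fold change below 0, against 48.8% of all genes tested, and the median was -0.45 against 0.0077 over all genes. Chac1, Cth and Txnrd1 were lower in every ATF4 BKO library than in both WT libraries, as were 10.6% of all genes, and 0 members were higher in every one, against 8.95% of all genes. DESeq2 called 2 of the 10, Chac1 and Cth, where it called 0.736% of all genes. With edgeR 0 of the 10 passed, while 2 had an unadjusted p under 0.05 and were lower, against 3.42% of all genes, and 0 were higher, against 1.81%. In DESeq2 3 were lower, Txnrd1 being the other, against 3.71% of all genes, and 0 were higher, against 2.09%. The edgeR test called 0.00608% of all genes, which is 1 gene, Cacna1i, which is on none of the lists and was named after its value was seen. Leaving out ATF4 BKO replicate 1 left 8 members below 0, the same 2 DESeq2 calls, and 3 members with no overlap, against 16.4% of all genes. The members lower with no overlap numbered 7 without ATF4 BKO replicate 2 and 8 without WT replicate 2, against 22.1% and 29.4% of all genes, and 3 without ATF4 BKO replicate 3 or WT replicate 1, against 15.1% and 20.2%. Without WT replicate 1, 5 members were below 0 and the median was -0.0018. Without WT replicate 2, 9 were below 0 and the median was -0.77. Both of these fits keep 1 WT library, so their calls are not given. DESeq2 calls over all genes were 56 to 205 when an ATF4 BKO library was left out.

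The 2 WT mice differed from each other in these genes. WT replicate 1 was above WT replicate 2 in 9 of the 10, Cbs being the exception, against 49.6% of all genes, and was the highest of the 5 libraries in 8, against 26.2% of all genes. WT replicate 1 was 5.90 times the ATF4 BKO mean for Chac1 and 4.08 times for Cth, and WT replicate 2 was 4.95 and 2.40 times that mean. For Gclc, Gclm, Gss and Gsr, WT replicate 1 was 1.28 to 1.80 times and WT replicate 2 was 0.880 to 1.03 times the ATF4 BKO mean. For the 8 members other than Chac1 and Cth, WT replicate 2 was at most 1.09 times the ATF4 BKO mean. With 2 WT mice, the spread of that group rests on 1 pair.

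**Figure D3:**
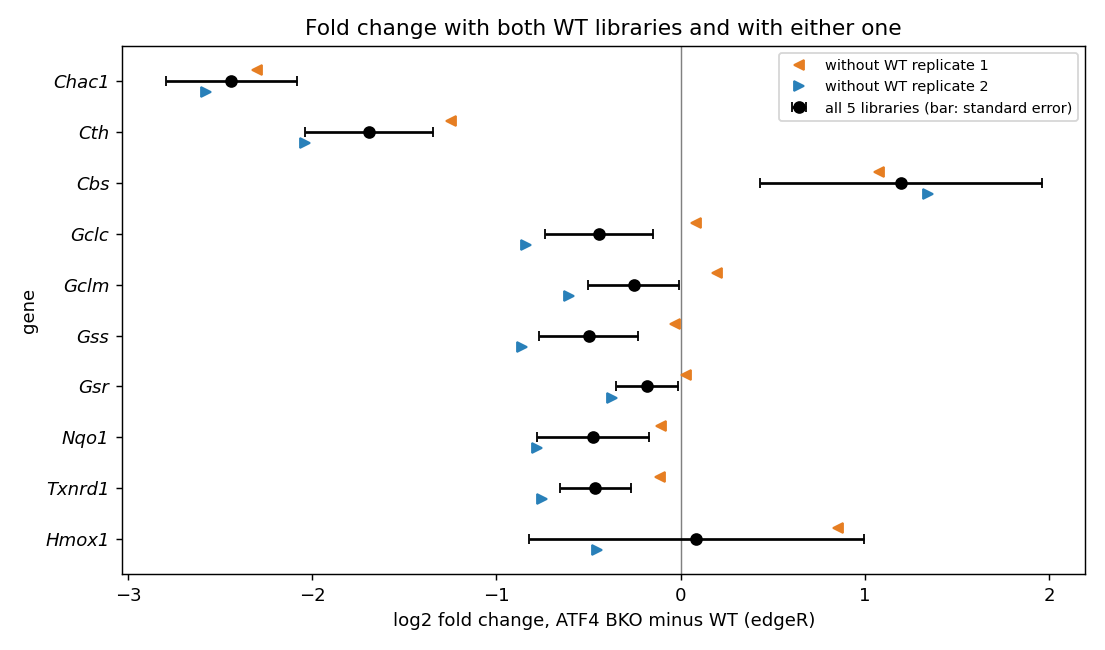
Log2 fold change (horizontal axis, ATF4 BKO minus WT) of the 10 genes, with all 5 libraries (black points, bars 1 SE) and without WT replicate 1 (orange) or WT replicate 2 (blue). Chac1 and Cth stay below -1 in all 3 fits, and Gclc, Gclm and Gsr cross 0 when WT replicate 1 is left out.

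Levels between genes are compared per length, as TPM, the share of a library's transcripts after division by length, summed per gene, over the 5 libraries. Hmox1 had the highest mean, 120 TPM (36.2 to 279), followed by Gclm at 55.0 TPM, Txnrd1 at 51.5 TPM and Gss at 37.5 TPM. Gsr had 11.8 TPM, Gclc 8.27 TPM and Cth 8.19 TPM, and Cbs, Nqo1 and Chac1 had 2.48, 2.17 and 2.11 TPM. This order pools both genotypes and differs in the WT libraries alone, where Txnrd1 (65.8 TPM) stood above Gclm (65.5 TPM), Cth (14.7 TPM) above Gsr (14.4 TPM) and Gclc (10.4 TPM), and Chac1 (4.24 TPM) above Nqo1 (2.77 TPM) and Cbs (1.24 TPM). Of neighbours in the pooled order, the ranges over libraries failed to overlap for Gss and Gsr alone. A retained-intron transcript of 495 bases held 35.9% of the Gclm TPM, and with protein-coding transcripts alone Gclm had 34.9 TPM and ranked below Txnrd1, and Cbs had 1.93 TPM and ranked below Nqo1 and Chac1. The modifier subunit was thus listed above the catalytic subunit on either count.

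Of the other sulfur amino acid genes, 22 of 26 were tested, with 15 log2 fold changes below 0 and 7 above and a median of -0.20. In 11 of the 22 the highest library was WT replicate 1, and without it the median was -0.033. In 7 of them (Ahcyl2, Mtap, Slc1a4, Mpst, Got1, Got2 and Ethe1) every ATF4 BKO library was below both WT libraries, and in 1, Csad, every one was above, where 10.6% and 8.95% of all genes did so. Neither edgeR nor DESeq2 called any of the 22 after adjustment, and at an unadjusted p under 0.05 there were 4 lower and 0 higher in edgeR and 5 lower and 0 higher in DESeq2. The shares of all genes were 3.42% lower and 1.81% higher in edgeR and 3.71% lower and 2.09% higher in DESeq2. Slc7a11, the cystine-glutamate exchanger, was at 0.662, 2.10 and 0.741 CPM in ATF4 BKO and 6.55 and 1.74 CPM in WT. WT replicate 1 was far above the others and WT replicate 2 lay below ATF4 BKO replicate 2, and the log2 fold change was -1.82 (SE 0.72, edgeR adjusted p = 0.911). Slc1a4, a neutral amino acid transporter, was at 1.72, 1.28 and 1.41 CPM in ATF4 BKO and 3.64 and 2.66 CPM in WT, with no overlap and a log2 fold change of -1.10 (SE 0.29, edgeR adjusted p = 0.794). Got1 was at 111, 147 and 142 CPM in ATF4 BKO and 221 and 154 CPM in WT (log2 fold change -0.49, SE 0.21). Got2, the mitochondrial aminotransferase, was at 49.2, 54.1 and 51.1 CPM in ATF4 BKO and 140 and 66.7 CPM in WT, with a log2 fold change of -1.01 (SE 0.30). Without WT replicate 1 the log2 fold change was -0.36 for Got2, -0.20 for Got1, -0.84 for Slc1a4 and -0.56 for Slc7a11. Without WT replicate 2 it was -1.46, -0.74, -1.32 and -2.50 in the same order. Slc7a11 had -2.54 without ATF4 BKO replicate 2. Of the Got2 transcripts, 27.3% of the 31-base words occur in other genes, as do 38.9% of those of Gpx4 and 16.3% of those of Sqstm1, described below. Mat2a, the methionine adenosyltransferase outside liver, had -0.31 (SE 0.21), or -0.0027 without WT replicate 1, and Cdo1, which commits cysteine to taurine and sulfate, had 0.49 (SE 0.28), both with overlapping groups. TGATGNAA was found in the promoters of Slc7a11, Slc1a4, Got1 and Sqor, 4 of the 22 with a window, and in 0 of the promoters of the other 5 pathway lists.

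The other glutathione enzymes pointed both ways. Of 37 genes 36 were tested, 16 with a log2 fold change below 0 and 20 above, and the median was 0.052. In 5 (Ggct, Ggt6, Glrx3, Gsto1 and Abcc1) the ATF4 BKO libraries were all below and in 4 (Ggt5, Gpx3, Gsta3 and Mgst1) all above the WT libraries, which is 13.9% and 11.1% of the list, near the 10.6% and 8.95% of all genes. Gsta3, a glutathione transferase, was at 3.67, 4.81 and 4.24 CPM in ATF4 BKO and at 1.61 and 1.86 CPM in WT. All 3 ATF4 BKO libraries lay above both WT libraries, and the log2 fold change was 1.29 (SE 0.26), with an adjusted p of 0.704 in edgeR and 0.0131 in DESeq2. The DESeq2 call was lost whichever ATF4 BKO library was left out, with adjusted p-values of 0.1335 to 0.4659. Leaving out any 1 library gave log2 fold changes of 1.20 to 1.38. Gsto1, another transferase, had -0.65 (SE 0.25), which was -0.17 without WT replicate 1. Ggt5, a gamma-glutamyltransferase, had 0.71 (SE 0.34), or 0.44 without ATF4 BKO replicate 2, Chac2, the constitutive relative of Chac1, had -0.17 (SE 0.33), and Gpx4, which reduces lipid peroxides, had 0.024 (SE 0.21).

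Further NRF2 targets repeated the difference between the WT mice. Of 26 genes 25 matched and 21 were tested, 13 with a log2 fold change below 0 and 8 above, with a median of -0.090, which was 0.107 without WT replicate 1. WT replicate 1 was the highest library in 11 of the 21, and in 9 of these WT replicate 2 lay within the ATF4 BKO range, a pattern held by 15.2% of all genes. Srxn1, sulfiredoxin, was at 75.0, 98.9 and 100 CPM in ATF4 BKO and 354 and 87.8 CPM in WT. WT replicate 1 was more than 3 times every other library and WT replicate 2 lay among the ATF4 BKO libraries, so that the log2 fold change of -1.27 (SE 0.53, edgeR adjusted p = 0.911) was -2.03 within the first prefix and 0.19 within the second. Abcc4, an efflux pump, was at 23.0, 33.8 and 33.0 CPM in ATF4 BKO and 79.0 and 32.1 CPM in WT, and Cbr3, a carbonyl reductase, was at 3.84, 4.52 and 4.85 CPM and 10.1 and 3.92 CPM. In both genes WT replicate 1 alone stood out, and without it the log2 fold changes were -0.089 for Abcc4 and 0.18 for Cbr3. Akr1b8 was lower, and Ephx1, Cbr1 and Fth1 were higher, in every ATF4 BKO library than in both WT libraries, with log2 fold changes of -0.62 (SE 0.25), 0.58 (SE 0.15), 0.40 (SE 0.19) and 0.17 (SE 0.15). Without WT replicate 1 Akr1b8 had -0.23. The lower and the higher genes are 4.76% and 14.3% of the list, against 10.6% and 8.95% of all genes. None of the 21 was called by edgeR or DESeq2, and at an unadjusted p under 0.05 there were 1 lower and 1 higher in edgeR and 3 lower and 1 higher in DESeq2, against 3.42% and 1.81% of all genes in edgeR and 3.71% and 2.09% in DESeq2.

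**Figure D4:**
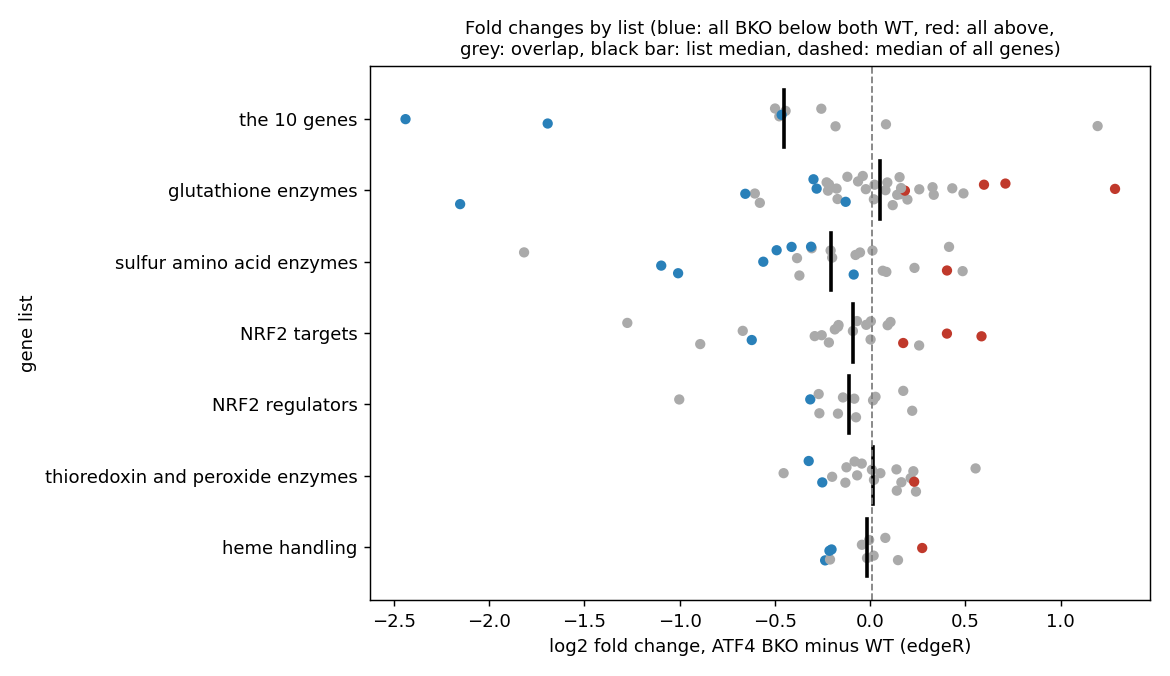
Log2 fold change (horizontal axis, ATF4 BKO minus WT) of each tested gene of the 7 lists, with list medians as black bars and the median of all genes as a dashed line. Blue and red points are genes whose ATF4 BKO libraries all lie below or all above both WT libraries. With all 5 libraries the 10 genes have the lowest median, -0.45, but without WT replicate 1 it was -0.0018 and not the lowest.

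The mRNAs of NRF2, KEAP1 and BACH1 overlapped between the genotypes. Nfe2l2, which encodes NRF2, was at 95.0, 78.9 and 89.2 CPM in ATF4 BKO and 96.9 and 87.7 CPM in WT (log2 fold change -0.074, SE 0.13). Keap1, its inhibitor, had 0.17 (SE 0.14), and Bach1, a repressor at the same DNA element, had 0.22 (SE 0.32). NRF2 activity, which is set largely by protein stability, was not measured. Of the 12 regulators 8 were below 0 and 4 above, with a median of -0.11. That median was -0.032 without WT replicate 1 and -0.22 without ATF4 BKO replicate 2. In 1 regulator, Nfe2l1, a relative of NRF2, every ATF4 BKO library (413 to 477 CPM) was below both WT libraries (571 and 552 CPM). Its log2 fold change was -0.31 (SE 0.14). This 1 gene is 8.33% of the list, against 10.6% of all genes, and 0 of the 12 were higher in every library, against 8.95%. Sqstm1 had -1.0 (SE 0.58) and Mafk, a partner of NRF2, had -0.27 (SE 0.30), WT replicate 1 being highest in both, and without it they had -0.059 and 0.117. None of the 12 was called by edgeR or DESeq2, and at an unadjusted p under 0.05 there were 0 in edgeR and 1 lower, Nfe2l1, in DESeq2, against 3.42% lower and 1.81% higher of all genes in edgeR and 3.71% and 2.09% in DESeq2.

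The core antioxidant response element motif was found in 2 of the 6 members with a promoter window, Gclm and Txnrd1, once each and on the opposite strand. The match in Gclm stands 134 to 126 bases before the start, in chr3:122245408-122245446, and that in Txnrd1 stands 92 to 84 bases before the second of its 3 starts, in chr10:82859099-82859137, both plus strand. Among the other NRF2 targets, 8 of the 24 with a window held the motif, Srxn1 and Abcc4 among them. So did 8 of 32 glutathione enzymes, 4 of 22 sulfur amino acid enzymes and 4 of 11 NRF2 regulators. It was also in 3 of 17 thioredoxin and peroxide enzymes and 1 of 8 heme genes. The share of all promoter windows was 12.4%, counted per window, whereas these counts are per gene and a gene can have several windows. Each match is a description of the sequence, and no binding was measured. The lines below show the matches of the members in capitals.
Gclm: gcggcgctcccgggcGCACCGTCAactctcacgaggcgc
Txnrd1: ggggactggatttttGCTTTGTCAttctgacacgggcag

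The remaining thiol and heme genes had list medians near that of all genes. Of 20 thioredoxin and peroxide enzymes 9 were below 0 and 11 above, with a median of 0.015, and of 11 heme genes 7 were below 0 and 4 above, with a median of -0.016. None of either list was called by edgeR or DESeq2, and none had an unadjusted p under 0.05 in either tool, against 3.42% lower and 1.81% higher of all genes in edgeR and 3.71% and 2.09% in DESeq2. Txnip, which binds and inhibits thioredoxin, was at 626, 1892 and 694 CPM in ATF4 BKO and 514 and 945 CPM in WT, and ATF4 BKO replicate 2 stood far above the others. Txnrd3, a relative of Txnrd1, had -0.45 (SE 0.22), or -0.14 without WT replicate 1, and Sesn2, a stress-responsive sestrin, had -0.32 (SE 0.15). In this list the groups did not overlap in 2 lower genes, Prdx6 and Sesn2, and in 1 higher, Sod1, which is 10% and 5% of the list, under the shares of all genes. Among the heme genes, Alas1, the first enzyme of heme synthesis, had -0.24 (SE 0.15), Slc40a1, the iron exporter, had -0.21 (SE 0.13) and Ppox had 0.27 (SE 0.13). The groups did not overlap in 3 lower heme genes, Alas1, Cpox and Slc40a1, and in 1 higher, Ppox, which is 27.3% and 9.09% of the list against 10.6% and 8.95% of all genes.

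The likeness of profiles was measured as the mean absolute difference of log2 CPM deviations over the 5 libraries, among 131 genes of the lists and members. Chac1 was nearest to Ggt6 (0.510) and Cth (0.514), and Cth to Slc1a4 (0.398) and Srxn1 (0.428). The other members had closer neighbours, Nqo1 with Txnrd3 (0.031), Txnrd1 with Ahcyl2 (0.051), Gclm with Txn1 (0.049), Gsr with Slc48a1 (0.034), Gss with Got1 (0.082) and Gclc with Mtrr (0.105). Hmox1 was nearest to Sqstm1 (0.466) and Cbs to Cdo1 (0.467). Small values are in part a matter of how little a gene varied. Among the tested genes of these lists and members, none had an edgeR log2 fold change as large as that of Chac1. Ggt6 came nearest, at -2.15 (SE 0.67) and a mean of 0.62 CPM.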

How the data were processed

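Per the labels, stranded mRNA libraries were made from BAT RNA, and the authors quantified transcripts by pseudo-alignment with Kallisto 0.45.0, with mm10 named as the build. For each mouse the authors deposited estimated counts per transcript, not normalized between mice. The deposited TPM values, scaled for length and library size, were used for levels between genes. Total estimated counts were 24698337, 27578833 and 31558111 in ATF4 BKO and 30996438 and 32452751 in WT. By identifier, 138191 of 141450 transcripts matched GENCODE M21, and the rest held 1.16% to 1.29% of counts. Counts were summed per gene and rounded, and a gene was kept if 2 or more libraries had 10 or more counts of it.

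The comparison used the quasi-likelihood test of edgeR 4.0.16 (R 4.3.3) with TMM factors, a model of genotype only and Benjamini-Hochberg adjustment. The common dispersion was 0.0758, with 3 residual and 3.06 prior degrees of freedom. Alternatives were DESeq2 1.42.0 (the tool in the methods), limma 3.58.1 on log2(TPM + 1) and log2(TPM + 0.1), library totals, no count filter, a threshold of 0.1, each library left out, and replicate number or name prefix as a term. On simulated counts with 200 genes changed 4-fold among 16450, edgeR recovered 194 with 7 false calls and DESeq2 recovered 190 with 16. There every gene had the common dispersion, the changed genes were not among those with few counts, and no library stood apart. The real data differ in these points, so the simulation checks the code and does not give the share of real changes found. The most similar pair of libraries differed with a chi-square of 49.9 per degree of freedom, far above sampling noise. They come from separate mice.

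The members and lists were chosen with earlier results of these data known, and no test was made over a list. Besides the members, Atf4 and fixed genes, the genes named are those called by either tool and the 3 largest changes of each pathway list with a mean of at least 1 CPM, the 2 genes nearest in profile to each member, and genes named in counts of libraries without overlap. Promoters are from RefSeq (GRCm38.p6), and 6 of 10 members had one.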

Additional observations from a re-analysis of the deposited data

Results flagged for a closer look

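ATF4 BKO replicate 1, described as male, held 4598 counts of Xist, a gene outside the comparisons, where the other 4 libraries held at most 7. Without this library, Chac1 and Cth had log2 fold changes of -2.49 and -1.48, and the median of the 10 genes was -0.36.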

How the results depend on the processing

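With 2 WT mice, the calls depended on the tool and on the libraries kept. Against 1 gene called by edgeR, DESeq2 called 121 and made Atf4 (-2.83), Chac1 (-2.45) and Cth (-1.69) pass the threshold, edgeR without a count filter called 8 and made Atf4 (-2.82) pass, and limma on log2(TPM + 1) and log2(TPM + 0.1) called 0 and 2. At an unadjusted p under 0.05, limma on log2(TPM + 1) had 1431 genes. Leaving out a library gave 0 to 23 calls. Replicate numbers were shared by 2 pairs of mice, and no label says that a number marks a shared litter or day. The deviations of these pairs from the group means correlated at 0.0473 and 0.20, which cannot settle the pairing, since the deviations of 2 WT mice mirror each other. With the replicate number as a block edgeR called 0 genes, and with the name prefix as a term it also called 0, where 711 and 876 had an unadjusted p under 0.05. The fold changes of Atf4, Chac1, Cth, Gss, Nqo1, Txnrd1 and Cbs kept their direction under all 12 alternatives. With limma on log2(TPM + 1), Chac1 had -1.64 and Cth had -1.68, so Chac1 was not the largest there. Hmox1 turned to -0.54 and -0.55 with limma on the 2 TPM scales, to -0.33 with the name prefix, and ranged from -1.38 to 0.85 when a library was left out. Without WT replicate 1, Gclc (0.083), Gclm (0.195) and Gsr (0.028) turned, and over the libraries left out they ranged from -0.84 to 0.083, from -0.61 to 0.195 and from -0.37 to 0.028. The median of the 10 genes ranged from -0.77 to -0.0018. The median of all genes was -0.099 with library totals and -0.12 and -0.17 on the 2 TPM scales, in that order. In the same order, the median was -0.30, -0.31 and -0.36 for sulfur amino acid enzymes, -0.19, -0.27 and -0.30 for NRF2 targets, -0.092, -0.16 and -0.16 for thioredoxin and peroxide enzymes, and -0.13, -0.22 and -0.22 for heme handling. It was -0.18 for NRF2 targets with the name prefix and -0.087 for thioredoxin and peroxide enzymes with the replicate block. When a library was left out the medians ranged from -0.32 to -0.033, from -0.31 to 0.107, from -0.082 to 0.072 and from -0.096 to 0.106 for these 4 lists. For glutathione enzymes the median ranged from -0.12 with limma on log2(TPM + 0.1) to 0.145 without ATF4 BKO replicate 2, so its sign turned. The causes of these shifts were not tested. Depth limits genes with few counts, such as Chac1 with 17 to 33 counts in ATF4 BKO.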

Other observations

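Gsta1, a glutathione transferase on the list of NRF2 targets that fell under the count filter, had 126 counts in WT replicate 1 and 0, 0, 1 and 3 counts in ATF4 BKO replicates 1, 2 and 3 and WT replicate 2. It was chosen after its values were seen, and 92.9% of its 31-base words occur in other genes.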
